A study of Mus musculus with 16 samples.

Results

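Mitochondria make only a few of their own proteins and take in the rest from the cytosol. Many of the 49 genes described here encode the gates and chaperones of that import route. Others encode the proteases and chaperones that cut, fold and clear proteins once inside. The rest were included by symbol. A gene was included if its symbol began with Timm, Tomm, Chchd, Grpel, Afg3l or Pmpc, or was Mtx1, Mtx2, Samm50, Immt, Lonp1, Clpp, Spg7, Hspe1, Pitrm1, Htra2, Trap1, Pam16 or Phb. These are 49 of the 17097 genes that had a probe set with 1 gene symbol. The rule used names and no measured value, but it was set with earlier results of these data known. The 49 members have 82 such probe sets, and each member was read from its brightest one. The members were sorted into roles, with 9 in the outer membrane gate, 6 in outer membrane insertion and contact sites, and 6 in the intermembrane space. A further 12 were counted with the inner membrane translocases and their motor, among them Timmdc1, whose symbol alone places it there. Presequence processing had 3, proteases and chaperones had 9, and 4 are other small proteins with the twin CX9C fold.

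RNA was taken from frozen quadriceps, a thigh muscle, of mice on a chow diet, with 4 arrays in each of 4 groups. The groups were control mice of 6 months (young control), Mfn2 KO mice of 6 months (young KO), control mice of 22 months (old control) and Mfn2 KO mice of 22 months (old KO). Mfn2 encodes mitofusin 2, an outer membrane GTPase that fuses mitochondria and tethers them to the endoplasmic reticulum. The strain, the sex, the form of the Mfn2 allele, and the promoter or cell type that drives its deletion are not given in the sources used here. Each array also has a family label and a replicate number from 1 to 4. Some families occur at 1 age only (A and B at 22 months, C and D at 6 months), and 3 of the 4 old KO mice are of family A. All values below are log2 signals from the authors' RMA normalisation, so that a difference of 1 is 2-fold, and differences are KO minus control or old minus young.

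Proteins bound for mitochondria are recognised by receptors of the TOM complex and pass its pore in the outer membrane. From there the SAM complex inserts barrel proteins, small Tim chaperones and the Mia40 disulfide relay handle proteins of the space between the membranes, and the TIM22 complex inserts carrier proteins. Proteins with a presequence go through the TIM23 complex, pulled by a motor on the matrix side, and the processing peptidase then removes the presequence. ATP-dependent proteases of the matrix and the inner membrane remove damaged proteins and mature others. Muscle fibres hold many mitochondria and make these proteins throughout life.

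The tissue label was checked against 15 muscle fibre genes, all 15 of which lay above the median of all genes, with a summed linear signal from 53620 to 60190 over the 16 arrays. Medians of the arrays over all probe sets ran from 4.58 to 4.65, and the number of arrays limits the precision of every comparison. Mfn2 itself measured 8.80 ± 0.60 (SD, n = 4) in young control, 8.45 ± 0.07 in young KO, 8.68 ± 0.36 in old control and 7.74 ± 0.96 in old KO muscle. The young groups overlapped, and the old KO arrays, with 6.32 in replicate 3 as the lowest, all lay below the old control arrays. Limma called neither difference. Whether the Mfn2 probe set lies in the deleted part is not given in the sources used here, so these values do not check the labels.

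The members were well measured as a set. Their means over the 16 arrays ran from 2.99 to 11.6, and 46 of 49 were above the median of all genes, which was 5.15. The 3 below it were Timm8a2, Tomm20l and Timm9. Levels of different probe sets are not comparable, so no order between genes is given.

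No member passed the test in any comparison. In the fit without the replicate block every member's adjusted p rounded to 1. Limma, with an adjusted p under 0.05 over all 17097 genes, called 0 of 49 members in each of the 7 comparisons, without or with the replicate number as a block. The same test called 0% of all genes for genotype at 6 months, 0% at 22 months, 0% for the interaction of genotype and age, and 0% for genotype over both ages. It called 0% for age in control mice, or 0.0468% with the block, 0.0175% for age in KO mice, or 0.0234% with the block, and 0.0585% for age over both genotypes, or 0.579% with the block. The members' count of 0 is therefore near the background in every comparison.

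Between 0 and 10 of the 49 members reached an unadjusted p under 0.05 in limma, depending on the comparison and the fit. Without the block there were 0 for the effect of genotype at 6 months (1.7% of all genes), 0 for that at 22 months (1.14%), 0 for ageing of control muscle (2.12%), 0 for the interaction (1.13%) and 0 for genotype over both ages (1.55%). There were 3 for ageing of KO muscle (6.12% of members, 2.59% of all genes) and 3 for age over both genotypes (6.12%, against 3.52%). With the block the counts were 4 for genotype at 6 months (9.43%), 1 for genotype at 22 months (6.62%), 4 for ageing of control muscle (9.64%) and 6 for ageing of KO muscle (10.2%). They were 3 for the interaction (7.24%), 3 for genotype over both ages (8.47%) and 10 for age over both genotypes (11.7%). As shares of the members, the counts for ageing of KO muscle and for age over both genotypes were then 12.2% and 20.4%. In both fits the members' share was above that of all genes in these comparisons and below it in the others, which was not tested.

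The differences were small. Of the 95% confidence intervals for age in KO mice, 47 of 49 lay within 2-fold in either direction and 38 of 49 within 1.5-fold, and with the block all 49 and 45 of 49 did. For genotype in young mice 46 of 49 intervals lay within 2-fold, and for genotype in old mice all 49. With the replicate block the intervals of all 49 members lay within 2-fold in all 7 comparisons.

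The direction of the small differences was uneven across comparisons. In young muscle 31 members were higher and 18 lower in KO than in control, with a median of 0.02 (all genes -0.0056, with 52.2% of genes lower). In old muscle 12 were higher and 37 lower in KO, with a median of -0.04 (all genes -0.0041, with 51.6% lower). With age 26 of 49 were lower in control muscle, with a median of -0.0029 (all genes -0.0082, with 53.1% lower). In KO muscle 38 of 49 were lower with age, with a median of -0.10 and a range from -0.51 to 0.16 (all genes -0.0083, with 52.9% lower). The age difference in KO minus that in control was below 0 for 37 of 49 members, with a median of -0.10 (all genes -0.0013, with 50.3% below). Over both ages 29 of 49 were lower in KO (median -0.0097, with 52.9% of all genes lower), and over both genotypes 33 of 49 were lower with age (median -0.02, with 54.5% of all genes lower). These comparisons share groups: the young KO arrays enter both the young genotype and the KO age comparison, so their directions are not independent.

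**Figure D1:**
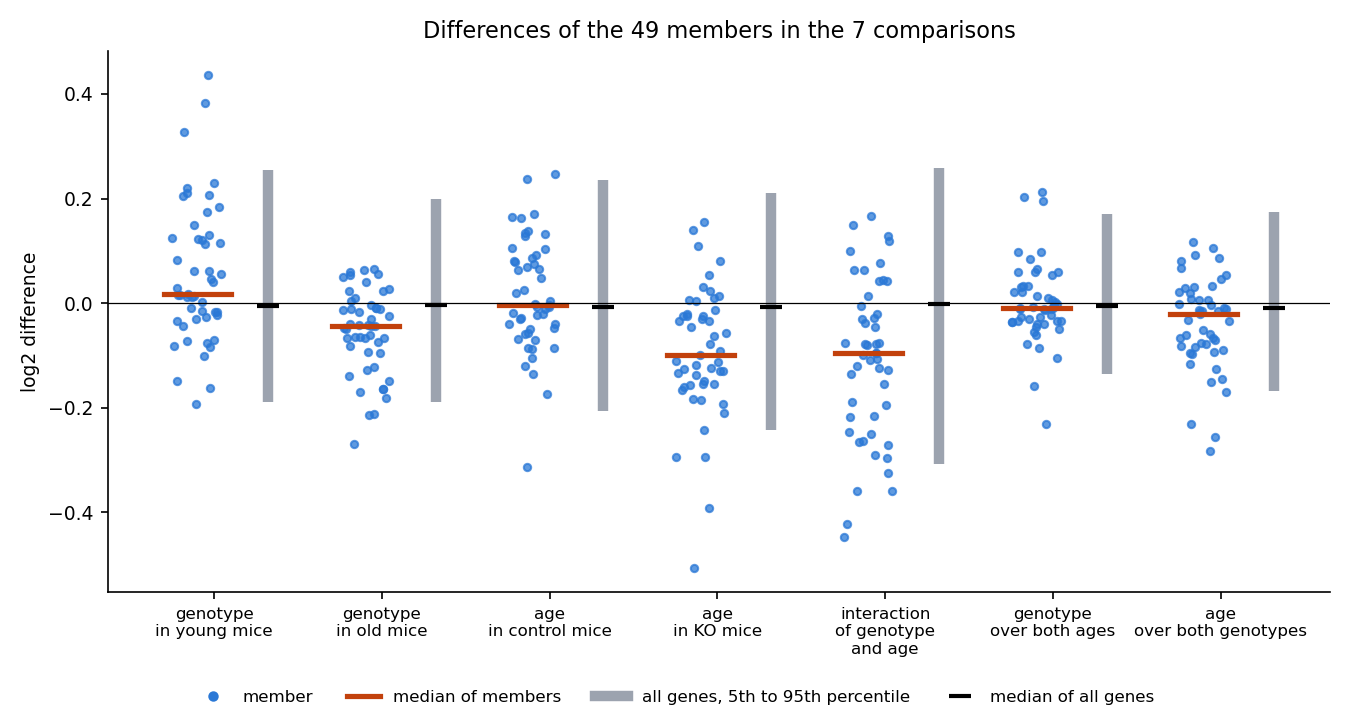
Log2 differences of the 49 members (blue points, spread sideways at random) in the 7 comparisons on the x axis, with the members' median as a red line. Grey bars run from the 5th to the 95th percentile of all genes, and black marks are the median of all genes. The members' median is -0.10 for ageing in the KO and 0.02 for genotype at 6 months.

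1 array had much weight in the age difference of KO muscle. Without old KO replicate 3 the members' median for age in KO mice was 0.0089, and 23 of 49 were lower; with the replicate block as well it was -0.06. Within replicate numbers the median was -0.04 for number 1 (35 of 49 lower), 0.0082 for number 2 (21 lower), -0.18 for number 3 (36 lower) and -0.10 for number 4 (40 lower). The old genotype difference had the same dependence, with a median of 0.04 and 20 of 49 lower without old KO replicate 3, or -0.03 with the block as well. Without old control replicate 2 that median was 0.01, and 21 were lower. With the block it ran from -0.07 to -0.03 as each array was left out. In bulk muscle, fewer cells of a type and less RNA per cell cannot be told apart.

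Timm23, the channel subunit of the inner membrane translocase, had the smallest unadjusted p of all members for age in KO mice. It measured 11.12, 11.10, 11.12 and 11.10 in young control muscle and 11.10, 11.13, 11.19 and 11.13 in young KO muscle. In old control muscle it was 11.06, 11.05, 11.12 and 11.13, and in old KO muscle 11.04, 11.09, 10.996 and 11.03. All 4 old KO arrays lay below all 4 young KO arrays, while the 2 control groups overlapped. The difference in KO mice was -0.10 (SE 0.03, 93.3% of the young level on the linear scale, unadjusted p = 0.00695 in limma's fit across all genes, with an adjusted p of 0.392 with the replicate block). In control mice it was -0.02, and the interaction was -0.08 (SE 0.05, 95% interval -0.17 to 0.02, not called by limma). Its spread between arrays of 1 group was only 0.01 to 0.04 (SD).

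Counting members whose groups did not overlap gave few. For age in KO mice they were Timm23 and Mtx1, both lower in old muscle, or 2 of 49 against 0.871% of all genes. For genotype in young mice it was Tomm40l, higher in KO, or 1 of 49 against 0.661%. No member was lower in young KO muscle (0.696%) or higher in old KO than in young KO muscle (0.924%). For genotype in old mice there were 0 (0.433% of all genes higher and 0.474% lower), and for age in control mice 0 (0.749% higher and 0.772% lower).

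A looser count asked whether all 4 replicate numbers had the same sign. For age in KO mice 13 of 49 members were lower in 4 of 4 numbers, against 10.8% of all genes. They were Afg3l1, Chchd3, Clpp, Htra2, Immt, Mtx1, Samm50, Timm21, Timm23, Timm29, Timm44, Timmdc1 and Tomm20, and they come from 4 of the 7 roles. Tomm6 and Trap1 were higher in 4 of 4 numbers (8.92% of all genes). For age in control mice 3 members were lower in 4 of 4 numbers (9.82%), Afg3l1, Timm21 and Timm9, and 4 were higher (7.45%), Grpel2, Pmpcb, Tomm34 and Trap1. The interaction was below 0 in 4 of 4 numbers for 11 members (8.49%) and above 0 for 2 (8.19%). For genotype in young mice 6 members were higher in 4 of 4 numbers (8.88%) and 3 lower (9.71%), and in old mice 1 was higher (6.46%) and 4 lower (7.08%).

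**Figure D2:**
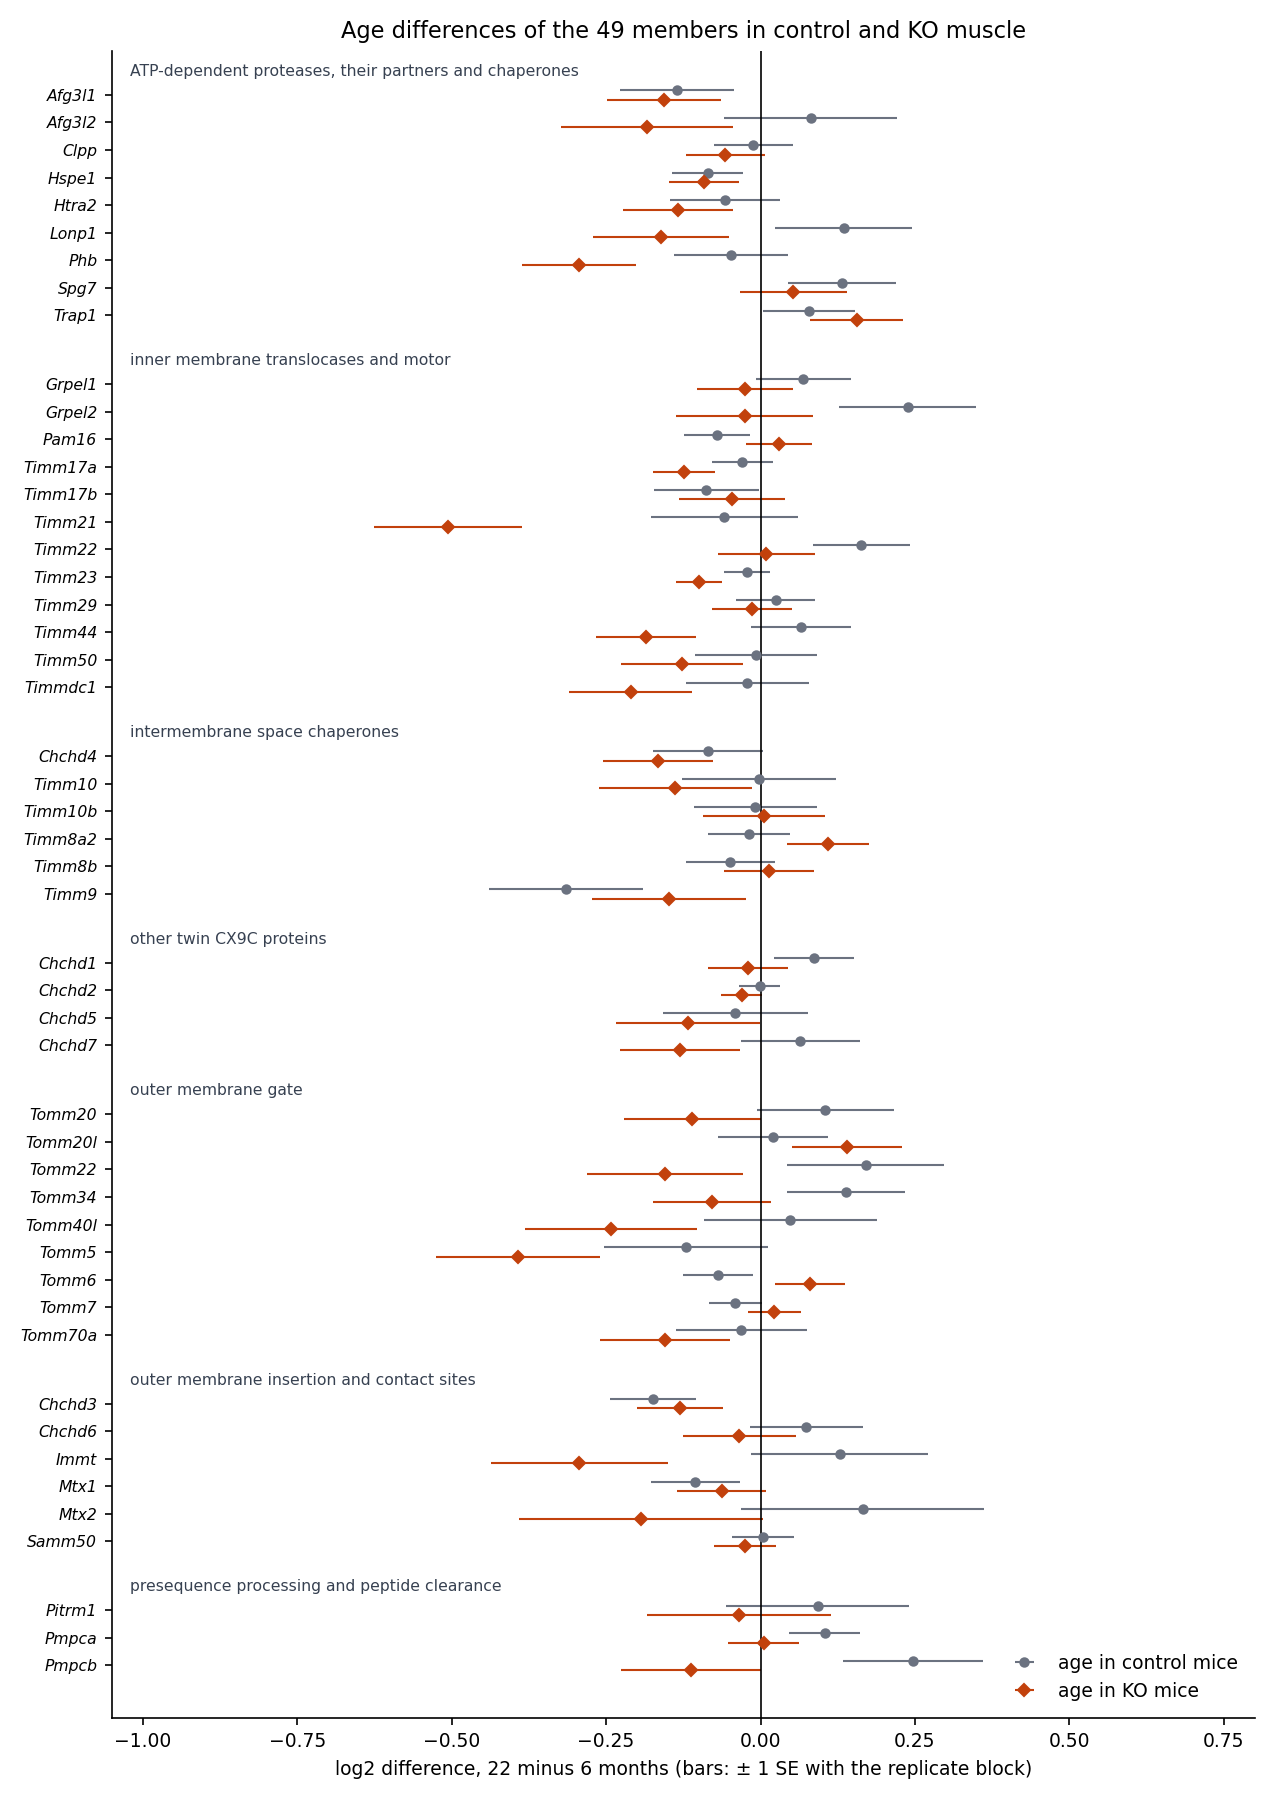
Log2 differences between 22 and 6 months (x axis) for each of the 49 members (y axis, grouped by role with the role named above its genes), in control mice (grey circles) and KO mice (red diamonds), with bars of 1 SE from the fit with the replicate block. Of the KO points 38 lie left of 0, with Timm21 at -0.51 and Tomm5 at -0.39 farthest, and of the control points 26 lie left of 0.

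Promoter sequence is shown for the 3 members with an unadjusted p under 0.05 for age over both genotypes: Timm23, Chchd3, a subunit of the MICOS complex that holds cristae in shape, and Hspe1, the matrix co-chaperonin Hsp10. Their age differences over both genotypes were -0.06 (SE 0.02), -0.15 (SE 0.06) and -0.09 (SE 0.04), none called by limma. The windows are the 250 bases before the RefSeq start on GRCm38.p6, written 5′ to 3′ on the gene's strand. They lie at chr14:32201892-32202141 (minus strand) for Timm23, chr6:33060261-33060510 (minus strand) for Chchd3 and chr1:55087898-55088147 (plus strand) for Hspe1. Capitals mark matches, on either strand, to the ETS core CCGGAAG, the ERR core AAGGTCA, the SP1 box GGGCGG and the CCAAT box CCAAT.
Timm23: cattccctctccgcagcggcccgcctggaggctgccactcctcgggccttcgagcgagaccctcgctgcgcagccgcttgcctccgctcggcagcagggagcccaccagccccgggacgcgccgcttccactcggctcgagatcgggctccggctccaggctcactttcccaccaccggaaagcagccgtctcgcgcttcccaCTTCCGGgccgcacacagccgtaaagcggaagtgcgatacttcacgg
Chchd3: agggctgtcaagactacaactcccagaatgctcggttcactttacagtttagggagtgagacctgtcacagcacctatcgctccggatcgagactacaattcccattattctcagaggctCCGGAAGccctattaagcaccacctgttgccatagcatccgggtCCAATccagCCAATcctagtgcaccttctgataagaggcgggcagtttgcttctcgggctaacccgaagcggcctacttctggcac
Hspe1: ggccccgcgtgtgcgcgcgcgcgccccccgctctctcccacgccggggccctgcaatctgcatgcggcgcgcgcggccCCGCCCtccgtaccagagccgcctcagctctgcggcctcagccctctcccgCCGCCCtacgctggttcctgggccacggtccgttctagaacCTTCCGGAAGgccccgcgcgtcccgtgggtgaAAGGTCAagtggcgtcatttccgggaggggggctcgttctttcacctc

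RefSeq gave a window for 41 of the 49 members. The ETS core, the letters bound by GABP among other factors, was found in 18 of the 41 windows (43.9%), against 7.83% of the windows of 27025 genes and 10.2% of those of 17492 coding genes. In Timm23 its only match began 47 bases before the start, in Chchd3 130 bases before, and in Hspe1 2 overlapping matches, 1 on each strand, began 80 and 77 bases before. The ERR core was in 4 of 41 windows (9.76%, against 4.7% of all genes and 4.18% of coding genes), among them that of Hspe1, 48 bases before the start. The SP1 box was in 21 of 41 (51.2%, against 35.4% and 45.8%) and the CCAAT box in 13 of 41 (31.7%, against 37.5% and 39.5%). The NRF1 palindrome, matched over 10 bases, and the YY1 core AAGATGGC were in 0 of 41 windows, against 0.877% and 1.83% of all genes. The windows' median GC content was 58.4%, against 52.4% for all genes and 55.6% for coding genes, and each motif holds G and C to a different degree. A match says only that the letters are there, and binding was not measured.

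The outer membrane gate had 9 members. With age 6 of 9 were lower in KO muscle (median -0.11) and 4 of 9 in control muscle (median 0.02), and in young muscle 6 of 9 were higher in KO (median 0.11). Tomm20 and Tomm70a, the receptors for presequences and for carrier proteins, had age differences in KO muscle of -0.11 and -0.15, and in control muscle of 0.11 and -0.03. The dimmer probe sets of Tomm20 gave 0.14, -0.03 and 0.02 in KO muscle, and 0.17, 0.03 and 0.16 in control muscle. The sign of its age difference in KO muscle thus depended on the probe set. Tomm22, the central receptor that organises the complex, measured 6.78, 6.69, 6.42 and 6.67 in young control and 6.93, 6.82, 6.30 and 6.95 in young KO muscle. It was 6.72, 7.11, 6.68 and 6.72 in old control and 6.77, 6.81, 6.54 and 6.26 in old KO muscle, so that the groups overlapped and old control replicate 2 stood above the rest. Its genotype difference in old mice was -0.21 (SE 0.17, not called by limma), but -0.10 without old KO replicate 4 and -0.11 without old control replicate 2.

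Tomm40l, a relative of the pore protein Tomm40, was between 8.46 and 8.64 in young control muscle and between 8.72 and 8.85 in young KO muscle, without overlap. The difference was 0.23 (SE 0.14, 117% of the control level, not called by limma), and its second, dimmer probe set gave 0.44. In old muscle the control arrays ran from 8.22 to 8.78 and the KO arrays from 8.19 to 8.89, and the difference was -0.06. Tomm5, Tomm6 and Tomm7 are small subunits around the pore. Tomm5 was chosen here after its values were seen: it was 8.57, 8.37, 8.33 and 8.29 in young KO muscle and 8.34, 8.39, 7.43 and 7.82 in old KO muscle. The difference of -0.39 (SE 0.20) came mostly from replicates 3 and 4. Tomm6 and Tomm7 had age differences of 0.08 and 0.02 in KO muscle and -0.07 and -0.04 in control muscle. The second probe set of Tomm6 had the opposite sign in both. The dimmer probe sets of Tomm7 gave -0.02, -0.00079 and -0.15 in KO muscle, opposite in sign to the brightest. In control muscle they gave -0.04, -0.12 and -0.16.

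The insertion and contact site group held the SAM subunit Samm50, its partners Mtx1 and Mtx2, and the MICOS subunits Immt, Chchd3 and Chchd6, which join the inner membrane to the outer at crista junctions. All 6 were lower with age in KO muscle (median -0.10), and 2 of 6 in control muscle (median 0.04). Samm50 was nearly level in the 4 groups, at 10.59 ± 0.12, 10.60 ± 0.08, 10.59 ± 0.04 and 10.58 ± 0.09 (SD, n = 4) in young control, young KO, old control and old KO muscle. Its 2 dimmer probe sets gave age differences in KO muscle of -0.16 and -0.16, against -0.03 for the brightest.

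Immt, the core subunit of MICOS, was 8.18, 8.31, 7.36 and 8.02 in young control and 8.38, 8.27, 8.18 and 7.87 in young KO muscle. It was 8.08, 8.35, 7.92 and 8.03 in old control and 8.22, 8.24, 7.25 and 7.82 in old KO muscle. The lowest arrays were replicate 3 of young control and of old KO muscle, and all groups overlapped. The age differences were -0.29 in KO and 0.13 in control muscle (both SE 0.23), and the interaction of -0.42 had a 95% interval from -1.11 to 0.26. Chchd3, in contrast, was lower with age in both genotypes: it averaged 10.32 ± 0.16 and 10.29 ± 0.10 (SD, n = 4) in young control and young KO muscle, and 10.15 ± 0.05 and 10.16 ± 0.17 in the old groups. The groups overlapped in each genotype. Mtx1 was 7.29, 7.33, 7.30 and 7.33 in young KO and 7.27, 7.26, 7.21 and 7.27 in old KO muscle, a difference of -0.06 (SE 0.09). In control muscle its age difference was -0.11, from 7.30 ± 0.04 (SD, n = 4) to 7.20 ± 0.11.

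The intermembrane space group of 6 showed no common direction in KO ageing, with 3 higher and 3 lower. In control muscle all 6 were lower with age (median -0.03). Chchd4, the mouse Mia40, which oxidises incoming proteins, averaged 7.51 ± 0.27 and 7.52 ± 0.20 (SD, n = 4) in young control and young KO muscle, and 7.42 ± 0.26 and 7.35 ± 0.32 in the old groups. Timm9 and Timm10 form the chaperone that guides carrier proteins. Timm10 had age differences of -0.14 in KO and -0.0029 in control muscle, and Timm9 of -0.15 and -0.31. The dimmer probe set of Timm9 had the opposite sign in both, at 0.01 in KO and 0.20 in control muscle. Timm9 was dim, and within each group its arrays of numbers 3 and 4 lay below those of numbers 1 and 2, as in old control muscle at 5.03, 5.40, 4.24 and 4.46. Timm8b, of the partner chaperone, had age differences of 0.01 in KO and -0.05 in control muscle.

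Of the 12 inner membrane members, Timmdc1 included, 10 were lower with age in KO muscle (median -0.07) and 7 in control muscle (median -0.01). In old muscle 11 of 12 were lower in KO than in control (median -0.07). Timm17a, which forms the translocase with Timm23, was 10.77, 10.74, 10.69 and 10.67 in young KO and 10.59, 10.75, 10.50 and 10.53 in old KO muscle. Old KO replicate 2 overlapped the young arrays. The difference was -0.12 (SE 0.06, unadjusted p = 0.0448 in limma's fit across all genes), against -0.03 in control muscle. Timm50, the receptor of the translocase, had age differences of -0.13 in KO and -0.01 in control muscle (both SE 0.37).

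Timm44, which docks the import motor on the translocase, was 9.08, 9.16, 8.70 and 9.24 in young control and 9.26, 9.24, 9.08 and 9.32 in young KO muscle. It was 9.11, 9.12, 9.11 and 9.10 in old control and 9.19, 9.13, 8.82 and 9.04 in old KO muscle. KO was higher than control in 4 of 4 numbers at 6 months, yet the groups overlapped, and the old groups overlapped as well. The genotype difference in young mice was 0.18 (SE 0.11) and the interaction -0.25 (SE 0.16), neither called by limma. Without young control replicate 3 they were 0.07 and -0.13. With the block as well, the genotype difference was then 0.11. Both dimmer probe sets of Timm44 had the same sign as the brightest in these comparisons, at 0.15 and 0.28 for genotype and -0.08 and -0.29 for the interaction. Pam16 and Grpel1, a regulator and the nucleotide exchange factor of the motor, differed by 0.03 and -0.03 with age in KO muscle. Timm22, the carrier translocase, averaged 8.08 ± 0.18 (SD, n = 4) in old control muscle and 7.92 ± 0.16 in old KO muscle, a difference of -0.16 (SE 0.13, not called by limma). Leaving out old control replicate 2 gave -0.08, and leaving out old KO replicate 3 gave -0.09.

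Timm21, a TIM23 subunit that contacts the TOM complex, was also chosen after its values were seen, as the member with the largest difference. It was 7.05, 7.43, 6.25 and 6.69 in young control muscle, and 7.54, 7.49, 7.13 and 6.997 in young KO muscle. In old control muscle it was 6.95, 7.37, 6.21 and 6.65, and in old KO muscle 7.11, 7.34, 6.23 and 6.45. Young KO was thus above young control in every number, and the other 3 groups had similar values number by number. The differences were 0.44 for genotype in young mice (SE 0.30, or 0.12 with the replicate block) and -0.51 for age in KO mice (70.4% of the young level). With the block the adjusted p values were 0.362 and 0.178 in limma, and both comparisons rest on the same 4 young KO arrays.

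**Figure D3:**
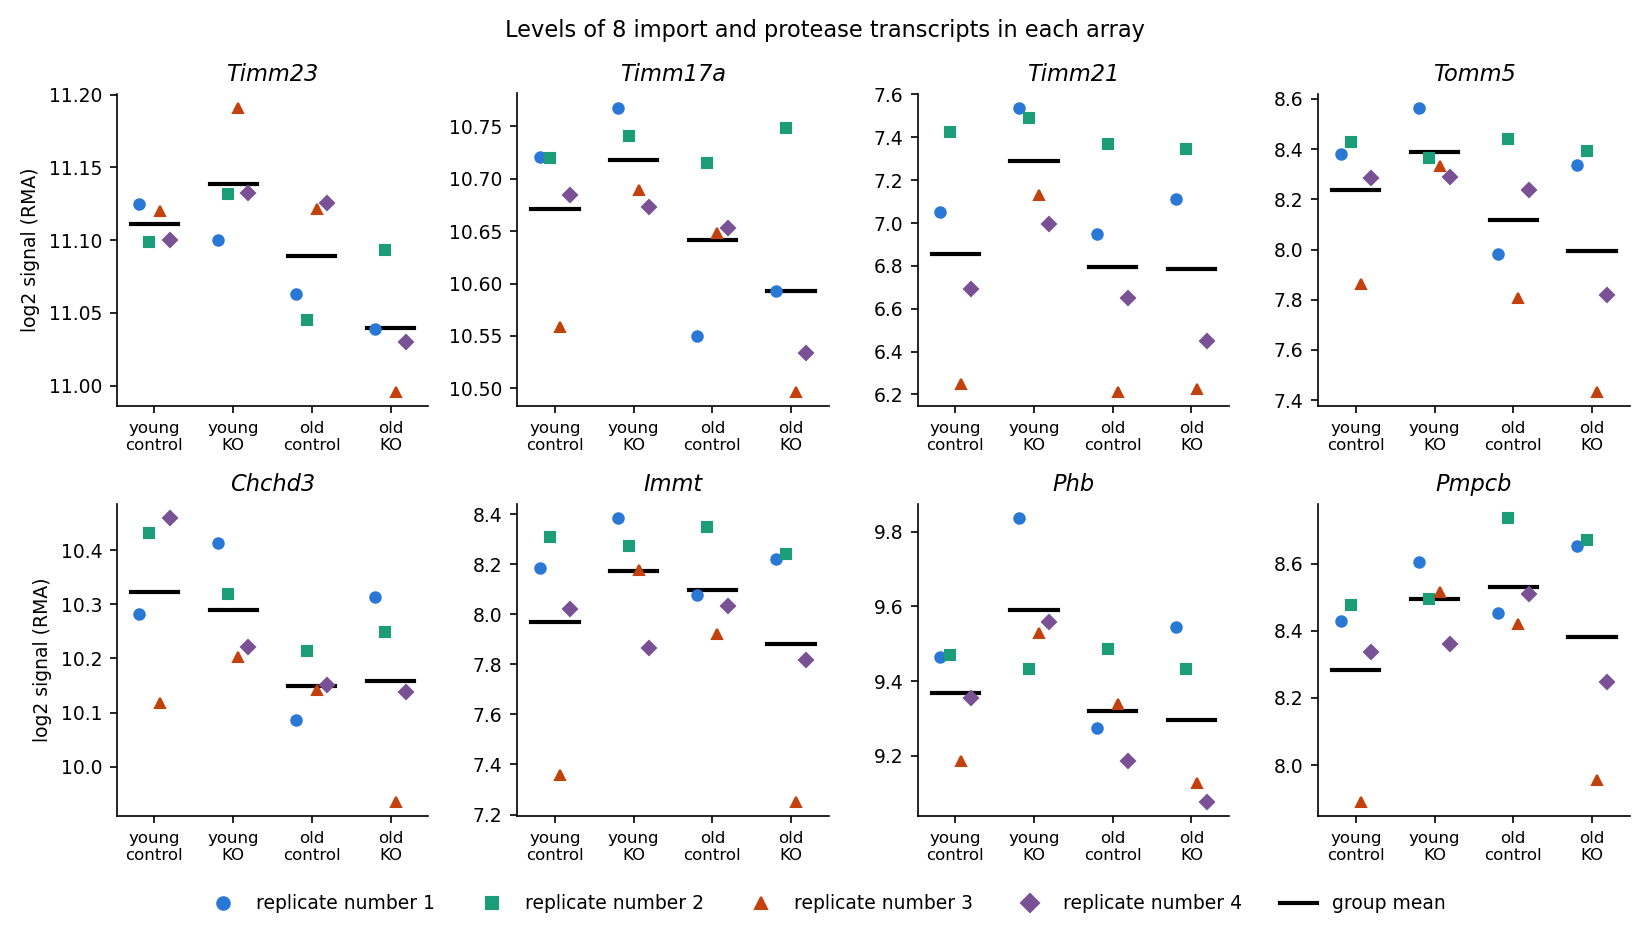
Log2 signal (y axis) of 8 members in each of the 16 arrays, by group (x axis), with the replicate number given by colour and shape and the group mean as a black line. Timm23 in old KO muscle (10.996 to 11.09) lies below young KO muscle (11.10 to 11.19), while for Timm21 and Immt the arrays of numbers 3 and 4 lie mostly below those of numbers 1 and 2 in every group.

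The 3 processing members were all higher in KO than in control at 6 months (median 0.12) and all higher with age in control muscle (median 0.10). Pmpcb and Pmpca are the catalytic and the recognition subunit of the processing peptidase, and Pitrm1 degrades the freed presequences. Pmpcb was 8.43, 8.48, 7.89 and 8.34 in young control and 8.45, 8.74, 8.42 and 8.51 in old control muscle. It was higher with age in 4 of 4 numbers, by 0.25 (SE 0.16, 119% of the young level, not called by limma), and the groups overlapped, with young control replicate 3 the lowest array. Without that array the difference was 0.12, or 0.17 with the block as well. In KO muscle its age difference was -0.11. Pmpca was between 9.26 and 9.53 in young control and between 9.43 and 9.65 in old control muscle, a difference of 0.10 (SE 0.08).

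Among the 9 proteases and chaperones, 7 were lower with age in KO muscle (median -0.13) and 5 in control muscle (median -0.01). Phb, prohibitin, forms a ring with Phb2 that holds inner membrane proteases. It was 9.46, 9.47, 9.19 and 9.35 in young control and 9.84, 9.43, 9.53 and 9.56 in young KO muscle. It was 9.27, 9.48, 9.34 and 9.19 in old control and 9.54, 9.43, 9.13 and 9.08 in old KO muscle. Old KO replicates 3 and 4 lay below all young KO arrays, and replicates 1 and 2 overlapped them. The age difference in KO muscle was -0.29 (SE 0.12, 81.6% of the young level, unadjusted p = 0.0240 in limma, adjusted p = 0.302 with the block). A dimmer Phb probe set gave -0.06 there, and for genotype in young mice -0.03 against 0.22 for the brightest, which was 0.14 without young KO replicate 1.

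The soluble matrix proteases Lonp1 and Clpp had age differences of -0.16 and -0.06 in KO and 0.13 and -0.01 in control muscle. Afg3l1, Afg3l2 and Spg7 form the protease of the inner membrane that faces the matrix. Afg3l1 was lower in KO at both ages and lower with age in both genotypes, at 7.22 ± 0.07, 7.07 ± 0.18, 7.08 ± 0.18 and 6.91 ± 0.34 (SD, n = 4) in young control, young KO, old control and old KO muscle. Its old KO value in number 1 was, however, 0.03 above that of old control. The genotype difference of Afg3l1 over both ages was -0.16 (SE 0.11, not called by limma), or -0.10 without old KO replicate 3. Afg3l2 and Spg7 had no such order: Afg3l2 was 0.33 and 0.06 higher in KO at 6 and 22 months, and Spg7 -0.02 and -0.10. Htra2, a protease of the intermembrane space, differed by -0.13 with age in KO and -0.06 in control muscle.

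Hspe1 averaged 10.53 ± 0.05 and 10.59 ± 0.07 (SD, n = 4) in young control and young KO muscle, and 10.45 ± 0.11 and 10.50 ± 0.04 in old control and old KO muscle. Its age differences were nearly equal in both genotypes, -0.09 in control and -0.09 in KO, and a dimmer probe set gave -0.19 and -0.13. In control muscle, leaving out old control replicate 2 gave -0.14, and leaving out replicate 3 of that group gave -0.06. Trap1, a matrix chaperone of the Hsp90 family, was 1 of the few members higher with age in both genotypes, by 0.08 in control and 0.16 in KO muscle, in 4 of 4 numbers each.

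All 4 other twin CX9C proteins were lower with age in KO muscle (median -0.07), and 2 of 4 in control muscle. They were also all lower in KO than in control in old muscle. Chchd5 was lower in KO at both ages, averaging 6.16 ± 0.36 and 5.97 ± 0.33 (SD, n = 4) at 6 months in control and KO, and 6.12 ± 0.26 and 5.85 ± 0.41 at 22 months. The groups overlapped. Over both ages its genotype difference was -0.23 (SE 0.16, 85.2% of control, not called by limma, adjusted p = 0.483 with the block). Without young KO replicate 3 it was -0.15, or -0.19 with the block as well. The dimmer probe set of Chchd5 gave -0.09 over both ages. In number 4 at 6 months, KO was 0.30 above control.

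Levels of most members differed by replicate number. An F test over the 4 numbers in limma called 33 of 49 members (67.3%), against 66.6% of all genes. The mean of the 49 members was 8.13 and 8.18 for numbers 1 and 2 and 7.81 and 7.94 for numbers 3 and 4. By the mean, 43 of 49 members were lower in numbers 3 and 4 than in 1 and 2, with a median of -0.21, against 58.9% of all genes and a median of -0.08. For 12 members all 8 arrays of numbers 3 and 4 lay below all 8 of numbers 1 and 2 (13.9% of all genes), and for 2 above (12.2%). Pitrm1 (-1.19), Timm50 (-0.90), Mtx2 (-0.81) and Timm9 (-0.79) differed most. Timm23 hardly differed by number (0.01, adjusted p = 0.931 in limma).

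**Figure D4:**
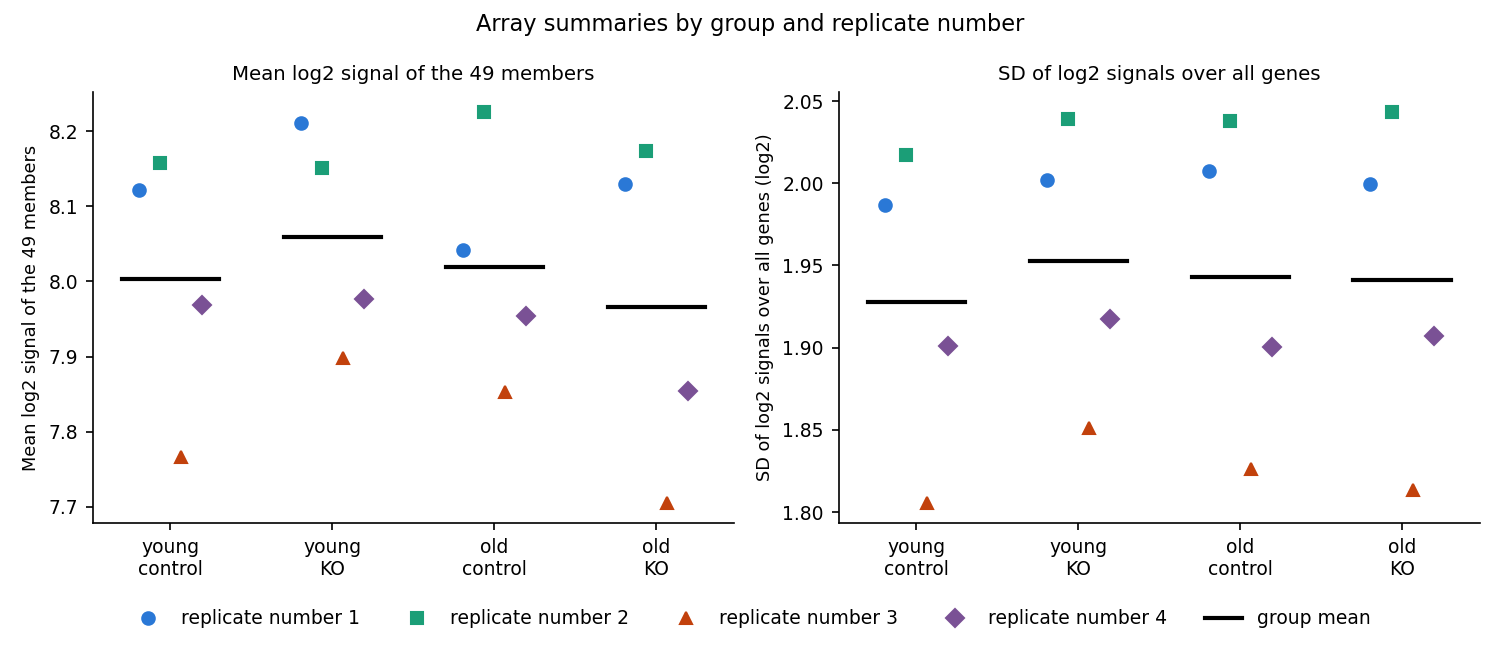
Mean log2 signal of the 49 members (left) and SD of log2 signals over all genes (right) in each of the 16 arrays, by group (x axis), with the replicate number as colour and shape and the group mean as a black line. In every group the arrays of numbers 3 and 4 lie below those of numbers 1 and 2 in both panels.

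The spread of all genes moved with the number as well: the SD of log2 signals over all genes averaged 2.00 and 2.03 in numbers 1 and 2, and 1.82 and 1.91 in numbers 3 and 4. The 3′ minus 5′ signal of the pyruvate carboxylase control was below 0 in all arrays of numbers 1 and 2 and above 0 in 7 of 8 arrays of numbers 3 and 4. It was also higher in old than in young muscle, with means of -0.04 in old control and 0.03 in old KO against -0.13 and -0.11 in young control and young KO muscle. With this signal and the replicate block in the fit, the members' median for age in KO mice was -0.06, with 34 of 49 lower. With family and the block it was -0.08, with 39 lower. The part of either in the members' differences was not tested. The labels do not say what the number stands for. It lowered the members' median SE from 0.144 to 0.0895.

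For comparison, 2 like sets of nuclear-encoded mitochondrial genes were counted in the same way. Of 42 genes whose symbols begin with Nduf, for complex I of the respiratory chain, 41 were lower with age in KO muscle (median -0.09) and 26 in control muscle (median -0.01). Of 73 mitochondrial ribosomal protein genes, 66 were lower with age in KO muscle (median -0.11) and 42 in control muscle (median -0.01). Limma called 0 genes of either set in the 7 comparisons, without or with the block. For age in KO mice 6 of 42 and 2 of 73 reached an unadjusted p under 0.05 in limma without the block (2.59% of all genes). With the block 13 of 42 and 14 of 73 did (10.2% of all genes). The difference between the members and these sets was not tested.

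Other import and protease genes were listed with earlier results of these data known. Of 35 listed genes 27 were measured, and 23 of 27 were lower with age in KO muscle (median -0.16), 10 of 27 in control muscle (median 0.04). In young muscle 22 of 27 were higher in KO (median 0.08), and in old muscle 23 of 27 were lower (median -0.11). Limma called 0 of 27 in either fit in the 7 comparisons. For age in KO mice 8 reached an unadjusted p under 0.05 with the block (10.2% of all genes), and 2 without it (2.59%). The 2 were Immp1l, a subunit of the inner membrane peptidase, at -0.15 (SE 0.06), and Phb2, the partner of Phb, at -0.17. For age over both genotypes the smallest p values belonged to Dnlz (0.33), which assists the matrix Hsp70, and Immp1l (-0.09). For genotype over both ages they belonged to Dnajc19 (-0.07) and Dnajc15 (-0.09), J-proteins of the import motor.

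Regulators of mitochondrial gene expression were measured for 9 of 10 listed genes. Ppargc1b, a coactivator of mitochondrial biogenesis, fell by 0.62 on the log2 scale with age over both genotypes in limma with the replicate block (SE 0.13, adjusted p = 0.0456). It was not called without the block. The age difference was -0.86 in KO and -0.39 in control muscle. 8 of the 9 regulators were lower with age in KO muscle and 4 in control muscle. Gabpa and Esrra, named here for the motifs above, whose products bind the ETS core and the ERR core, differed by -0.07 and -0.06 with age in KO muscle and by -0.01 and 0.09 in control muscle, with 0 called in either fit.

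Genes of the mitochondrial stress response, which respond to failing import or protein folding, were measured for 11 of 13. Limma called 0 in either fit in the 7 comparisons. Without the block 1 reached an unadjusted p under 0.05 in limma, for age over both genotypes (3.52% of all genes). That was Atf5, a transcription factor that healthy mitochondria import, at -0.59 (SE 0.24). Its age differences were -0.67 in control and -0.51 in KO muscle. Cebpb was 0.29 for age over both genotypes, and Chac1 and Psat1 were 0.28 and -0.13 for genotype over both ages. In KO muscle 7 of 11 were higher with age (median 0.06), and in control muscle 2 of 11 (median -0.12). In old muscle 10 of 11 were higher in KO than in control (median 0.09), and in young muscle 4 of 11 (median -0.11).

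Markers of cell types differed between the groups too. 11 of 12 macrophage markers were higher with age in each genotype (medians 0.64 in control and 0.47 in KO muscle), with summed signals of 644 to 896 and 590 to 1219 in young control and young KO and 845 to 1703 and 985 to 1608 in old control and old KO muscle. Cd68, Adgre1, Cd14 and Itgam of that list were below the median of all genes, and with the block Mpeg1 rose by 0.45 with age over both genotypes (adjusted p = 0.0463 in limma). Of 9 fibroblast and matrix markers 6 were lower with age in KO muscle (median -0.34) and 6 in control muscle (median -0.28). Col3a1, a fibrillar collagen, fell by 0.92 in KO muscle (SE 0.14, adjusted p = 0.0313 in limma). Over both genotypes Col1a1, Col3a1 and Sparc, all matrix proteins, fell by 1.04, 0.81 and 0.35 with age (adjusted p = 0.0290, 0.00275 and 0.00534 in limma), and with the block as well. Their sums ran from 5381 to 6840 in young control, 5664 to 7877 in young KO, 3859 to 4749 in old control and 4440 to 5201 in old KO muscle, and Col1a2, Pdgfra and Postn were below the median of all genes. Satellite cell markers were higher with age in KO muscle for 5 of 8 (median 0.03), and nerve markers lower for 3 of 5 (median -0.08), with 0 called by limma. 7 of 8 endothelial markers were lower with age in KO muscle (median -0.17), and 4 of 8 in control muscle. 8 of 8 slow fibre markers were higher in KO than in control at both ages (medians 1.40 and 0.71), with sums from 435 to 7058 in young control and 2463 to 12870 in young KO muscle. They ran from 574 to 9910 in old control and from 910 to 12850 in old KO muscle, and limma called 0 of them. Of 8 fat cell markers 7 were lower in young KO than in young control muscle (median -0.44), and 6 were higher with age in KO muscle (median 0.26). Their sums ran from 4574 to 6091 in young control, 4164 to 5615 in young KO, 4693 to 5760 in old control and 5584 to 6264 in old KO muscle, and Lep, Ucp1, Cidea and Pck1 were below the median of all genes. The muscle fibre list differed little with age in KO muscle (median -0.03, 11 of 15 lower). The part of these cell types in the members' differences was not tested.

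Dimmer probe sets gave a second reading for 26 members, 33 probe sets in all. Their sign was that of the brightest in 21 of 33 for ageing of KO muscle, 26 of 33 for ageing of control muscle, 19 of 33 for genotype at 6 months and 24 of 33 at 22 months. For age over both genotypes it was 28 of 33. 6 members were read by probe sets of the _s_at kind and 4 of the _x_at kind, which can also bind related transcripts.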

How the data were processed

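Total RNA of 16 quadriceps samples was amplified as cDNA and hybridised to Affymetrix mouse arrays, per the labels' protocols. The deposited values are log2 signals that the authors made with RMA in the affy package, per the submitters' processing notes. They were used as given, with 45037 probe sets, of which 104 are controls. Probe sets with 1 gene symbol were kept and the brightest was taken per gene, giving 17097 genes, with no filter on low values. Differences were fitted with limma 3.58.1 in R 4.3.3 (lmFit, then eBayes with a trend) on all 16 arrays with 1 mean per group, two-sided, adjusted by Benjamini-Hochberg over all genes. The alternative fit adds the replicate number as a block. Numbers pair the arrays: deviations from group means correlated in all 24 pairs of arrays with the same number (r from 0.289 to 0.780, median 0.677). Between different numbers the median was -0.455. Deviations cancel out within a group, so positive pairs of the same number force the others down, and this value is no separate baseline. Other alternatives left out each array in turn, dim genes, the eBayes trend or the groups not compared. Differences of single genes without 1 array are from the fit without the block unless the block is named. Further ones took the mean of a gene's probe sets, centred the arrays, or added family or the pyruvate carboxylase signal to the fit with the block. The series text speaks of separate mice, and p-values measure the spread between these arrays.

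The members and the gene lists were chosen with earlier results of these data known. Members named in the text are the 3 with the smallest unadjusted p in each comparison and anchors of each role, of which Tomm40, Timm13 and Chchd10 were not analysed here. Others are named by count or marked as chosen after their values were seen. Promoter windows are RefSeq's on GRCm38.p6, and figures were drawn with matplotlib 3.10.9.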

Additional observations from a re-analysis of the deposited data

Results flagged for a closer look

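Among the 31 named members, 7 of 124 groups of 4 arrays had 1 array far from the other 3 by Dixon's criterion, and chance gives about 1 in 20 groups. Grpel1 was 9.002 in young control replicate 3, below the next array at 9.32, and 9.58 in old control replicate 2, above the next at 9.27. Samm50 was 10.4 in young control replicate 3, with the next array at 10.6. Timm22 was 8.34 and Tomm22 7.11 in old control replicate 2, above the next arrays at 8.03 and 6.72. Tomm6 was 10.1 in young KO replicate 3, with the next array at 10.3, and 10.4 in old control replicate 1, with the next at 10.3.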

How the results depend on the processing

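The count of members called stayed at 0 in all 7 comparisons under every other setting run, 40 in all. Among them was the replicate block, with which it was 0 of 49 as well. The fit without dim genes held the 46 members above the median of all genes. The fit on only the groups compared was not run for the interaction, genotype over both ages or age over both genotypes. The replicate block changed no call of a member. The members' medians were small, and some changed sign. Leaving out 1 array at a time, the median for age in KO mice ran from -0.18 (without old KO replicate 2) to 0.0089 (without old KO replicate 3), and with the block from -0.13 to -0.05. The other medians are given without the block. The median of the interaction ran from -0.16 (without young KO replicate 3) to -0.01 (without young control replicate 3). That for genotype in young mice ran from -0.0077 (without young KO replicate 1) to 0.07, for genotype in old mice from -0.11 to 0.04, for age in control mice from -0.06 to 0.06, for genotype over both ages from -0.03 to 0.03, and for age over both genotypes from -0.08 to 0.0046 (without old KO replicate 3). Of 831 values of named differences over settings, 830 kept their direction and 0 were called, with a lowest adjusted p of 0.156 in limma. The kept directions are no check. These differences were picked as the 3 with the smallest unadjusted p in each comparison. With all 16 arrays, the block, the trend, the dim genes and the groups not compared cannot change a log2 difference, as every group has every number. The interaction of Tomm6 turned from 0.15 to -0.0133 with the mean of its probe sets, of which the dimmer one has the opposite sign, and was 0.10 without young KO replicate 3. With 4 arrays a group 95% intervals for a difference between groups reached from 0.0679 to 0.994 to either side over the members (median 0.307), and with the block from 0.0704 to 0.422 (median 0.192).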
